A study of Homo sapiens with 14 samples.

Results

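HSPA8 encodes HSC70, the constitutively expressed cytosolic member of the HSP70 chaperone family. Binding of the heat shock factors HSF1 and HSF2 at this gene was followed with ChIP-seq, the sequencing of DNA recovered with an antibody to each factor, in K562, a human erythroleukemia cell line. The region taken was chromosome 11 from 122922000 to 122940000 (hg19), a window of 18 kb around the gene, which lies on the minus strand with its start near 122932850. Of 117699 deposited peaks in the 12 peak lists, 9 overlapped this window. Cells were freely cycling or arrested in mitosis, and were kept at 37 °C without treatment or exposed to 42 °C for 30 min. Each of these 4 conditions has 1 HSF1, 1 HSF2 and 1 non-specific IgG library, each from 10 pooled immunoprecipitations. Each cell state also has 1 input library, labelled as heat-treated, and the peak lists of a state name 1 sequencing lane as control. The control had 34815679 kept tags in 5 cycling lists and 36542527, from another processing of that lane by its file name, in the list of non-treated cycling IgG. It had 38337720 in the 6 mitotic lists. The labels used here do not say how cells were arrested. K562 carries many copy number changes, and the lists hold binding regions alone, so the cell line could not be checked against expressed markers.

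HSC70 is an ATP-driven chaperone that folds newly made proteins, strips clathrin from coated vesicles and delivers proteins to lysosomes. It is abundant in unstressed cells, unlike the strongly heat-inducible HSP70 genes. HSF1 drives transcription of heat shock genes: on heat it assembles into trimers that bind heat shock elements, arrays of inverted GAA units. HSF2, from the same family, binds such elements too and can form mixed trimers with HSF1.

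The peaks to be described lie at the HSPA8 promoter, and its sequence is shown first because it carries heat shock elements. The 250 bases before the RefSeq start of HSPA8 are given 5′ to 3′ on the strand of the gene (GRCh38.p14, minus strand, chr11:123062137-123062386). This build is that of the RefSeq table and differs from the hg19 build of the peaks, and no position was converted between them. Capitals mark each match to a heat shock element of 3 units.

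HSPA8 promoter: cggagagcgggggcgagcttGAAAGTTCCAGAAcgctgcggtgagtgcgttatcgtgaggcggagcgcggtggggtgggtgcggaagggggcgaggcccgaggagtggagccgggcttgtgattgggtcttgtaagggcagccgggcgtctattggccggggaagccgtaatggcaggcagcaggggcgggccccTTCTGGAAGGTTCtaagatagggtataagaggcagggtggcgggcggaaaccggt

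The element was searched as GAANNTTCNNGAA on both strands, the reverse strand reading TTCNNGAANNTTC. The HSPA8 promoter holds 2 separate matches, one on each strand reading, given here with the number of bases before the start.

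distal element, 230 to 218 bases before the start: GAAAGTTCCAGAA

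proximal element, 55 to 43 bases before the start: TTCTGGAAGGTTC

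Between the elements lie 162 bases. Of 35116 promoter entries of the same length in the RefSeq table, 155 (0.441%) held at least 1 such match, and 2 entries held 2 separate ones. Those 2 entries were HSPA8 and HSP90AB1, a cytosolic HSP90 gene. In a list of 28 chaperone and co-chaperone genes, 23 were matched by symbol. Only HSPA8, HSPA6 and HSPD1 among these 23 held a match, and HSPA8 alone held 2 that were separate. The search took exact matches within the promoter length only. Elements that depart from these letters or lie outside that stretch were not searched. The absence of a match therefore does not show that a gene lacks heat shock elements. HSPA6 is a strictly heat-inducible HSP70 gene, and HSPD1 encodes the mitochondrial chaperonin HSP60. Each 3-unit match contains both 2-unit forms, GAANNTTC and TTCNNGAA, so that these were also found at 2 places each in HSPA8. They are more common, in 5.78% and 6.62% of entries. The promoter also has a TATAA match 32 to 28 bases before the start (13.6% of entries, this strand only). Matches to CCAAT on the other strand begin 129 and 99 bases before the start (32.0% of entries on either strand). GGGCGG begins 66 and 14 bases before it (42.6%). A match describes the letters only and does not show that a factor was bound there.

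Both factors had a listed peak at the HSPA8 promoter in every condition. All 8 HSF lists held a single peak in the window, all at the promoter, and none of the 4 IgG lists held a peak there. Levels are tags in the peak per 1000000 kept tags (CPM). Brackets give exact 95% Poisson intervals, which cover counting error alone, since tags without molecular identifiers are not independent molecules. Each group holds 1 library, so conditions could not be tested and the intervals compare libraries.

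In non-treated cycling cells HSF2 had the higher level. The HSF1 peak, at 122932691 to 122933173, had 14 tags (0.969 CPM, 0.530 to 1.63). The HSF2 peak, at 122932409 to 122933542, had 77 tags (2.69 CPM, 2.12 to 3.36). The intervals do not overlap, but per kilobase of peak width the levels were 2.01 and 2.37 CPM. After heat both factors were at their highest levels of the series at this gene. HSF1 had 130 tags at 122932364 to 122933595 (7.77 CPM, 6.49 to 9.22), and HSF2 had 112 tags at 122932379 to 122933512 (5.75 CPM, 4.74 to 6.92). Here the order of the factors was the other one, with HSF1 above HSF2 and slightly overlapping intervals.

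In mitotic cells the 4 values lay close together. Without heat, HSF1 had 15 tags at 122932548 to 122933363 (2.43 CPM, 1.36 to 4.01) and HSF2 had 38 tags at 122932722 to 122933531 (2.57 CPM, 1.82 to 3.53). With heat, HSF1 had 26 tags at 122932721 to 122933520 (3.52 CPM, 2.30 to 5.16) and HSF2 had 68 tags at 122932389 to 122933522 (2.40 CPM, 1.87 to 3.05). All 4 mitotic intervals overlap one another. Ordered from high to low, the levels were heated cycling HSF1, heated cycling HSF2, heated mitotic HSF1, non-treated cycling HSF2, non-treated mitotic HSF2, non-treated mitotic HSF1, heated mitotic HSF2 and non-treated cycling HSF1. Neighbours in this order had overlapping intervals, except that the lowest value lay below the interval of the one before it and the intervals did not meet.

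**Figure D1:**
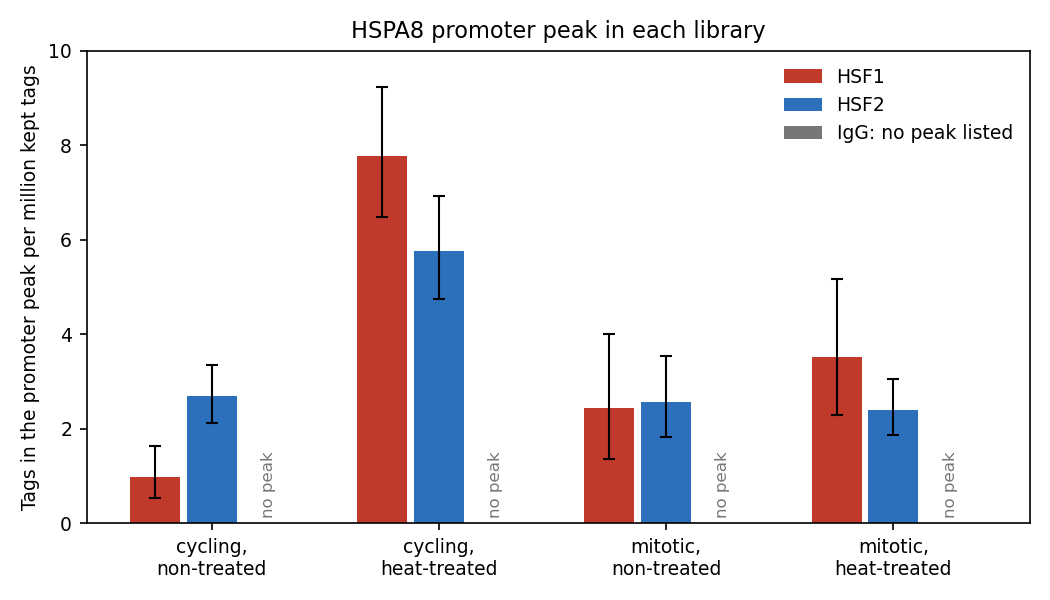
Tags in the HSPA8 promoter peak per 1000000 kept tags (vertical axis) for each antibody library, by cell state and treatment; bars are single libraries and lines are exact 95% Poisson intervals. The heated cycling bars, 7.77 for HSF1 and 5.75 for HSF2, stand above all others, and IgG had no peak at the promoter in any condition.

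The IgG lists inform on the background at the promoter to different degrees, and none sets an upper limit on it. The lowest listed value of any IgG peak was 0.813 CPM in non-treated cycling cells, 0.824 in heated cycling cells and 0.723 in heated mitotic cells. In non-treated mitotic cells it was 2.90 CPM (6 tags of 2066373 kept tags), which is above the 2.43 and 2.57 CPM of HSF1 and HSF2 there. An IgG level equal to that of the factors could therefore have gone unlisted in that condition. These values are the smallest of any listed peak anywhere, so higher IgG levels could also have gone unlisted at the promoter. In non-treated cycling cells the HSF1 interval, 0.530 to 1.63 CPM, includes the 0.813 CPM of IgG. The 1 IgG peak of the window belonged to heated mitotic cells and lay upstream of the promoter, at 122937040 to 122937636. It had 13 tags (0.723 CPM, 0.385 to 1.24) and a fold over input of 3.17, the median of its list of 41184 peaks. A gap of 3444 bp separates it from the nearest edge of any HSF peak.

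All 8 HSF peaks shared a common stretch of 452 bp, from 122932722 to 122933173. Their widths ranged from 483 bp for non-treated cycling HSF1 to 1232 bp for heated cycling HSF1, and the latter covers the extent of all others. The 8 summits spanned 165 bp and lay 30 to 195 bp before the approximate start of the gene, with a median of 85.5 bp. By distance from the start alone, the proximal heat shock element (55 to 43 bases) falls within this range and the distal one (230 to 218 bases) just beyond it. The summits and the sequence are on different builds and were not aligned base by base. Under heat, the HSF1 and HSF2 summits of cycling cells were 11 bp apart. The pair of non-treated cycling summits was 18 bp apart, that of non-treated mitotic cells 48 bp and that of heated mitotic cells 64 bp. The summit farthest upstream, heated mitotic HSF1 at 195 bp, came from a peak of 26 tags.

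**Figure D2:**
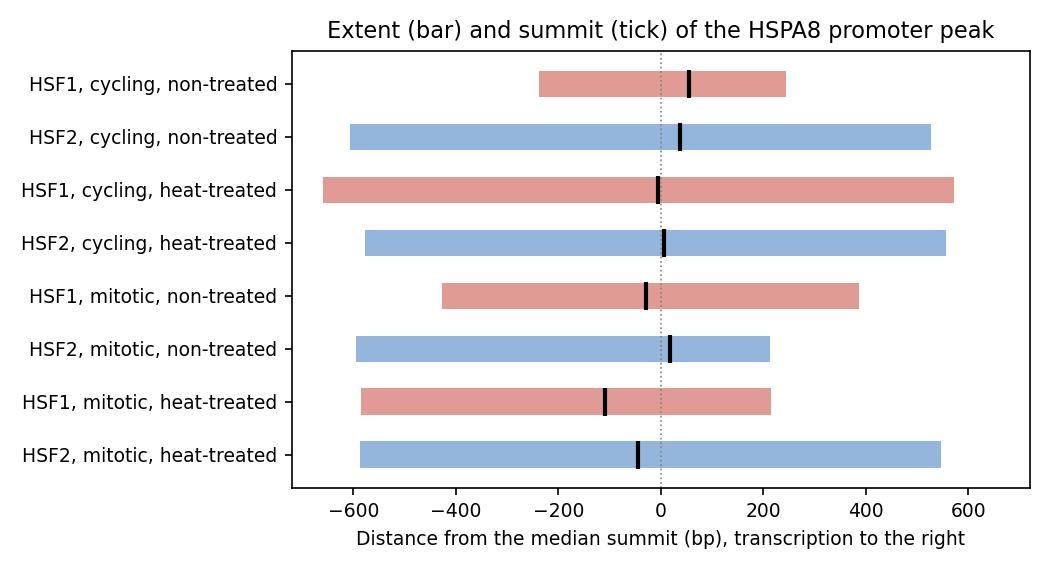
Extent (bar) and summit (tick) of the HSPA8 promoter peak in the 8 HSF lists, as distance in bp from the median summit, with transcription to the right. The summits spanned 165 bp, and the shortest bar, of 483 bp, is non-treated cycling HSF1.

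The surroundings of the gene held few other peaks. Within 100 kb on either side of the window, all lists together formed 9 separate regions, HSPA8 included. Only 1 other region had a peak in more than 1 list, at 122873783 to 122874763, about 58.7 kb from the HSPA8 summits. It was listed in 9 of 12 lists, of which 4 were all the IgG lists and 5 were HSF lists. Its level was 3.74 to 16.0 CPM and its fold over input 0.43 to 3.39. The HSPA8 promoter had another composition, with 8 HSF lists and 0 IgG lists, and folds of 2.82 to 29.5. The remaining 7 regions were each in 1 list.

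Within its own list the HSPA8 peak stood near the top by fold over input, the authors' value at the summit, which ranks peaks within a list only. HSPA8 was the first of 875 peaks of non-treated cycling HSF2, with a fold of 20.2 against a median of 3.86. After heat it ranked 13 of 6447 HSF1 peaks (fold 29.5) and 6 of 4315 HSF2 peaks (fold 26.8). In mitotic cells it ranked 17 of 4534 for non-treated HSF1 (fold 2.82) and 30 of 4982 for heated HSF1 (fold 5.28). For HSF2 it ranked 7 of 19866 without heat (fold 8.10) and 6 of 8270 with heat (fold 12.3). The lowest place was in non-treated cycling HSF1, at 85 of 4718 (fold 4.27). By number of tags the places were lower throughout, from 171 in heated cycling HSF1 to 2117 in non-treated cycling HSF1, where the 14 tags equal the median of the list. The deposited FDR was 0.55% or less in 6 lists, but 9.59% in non-treated cycling HSF1 and 28.6% in non-treated cycling HSF2. An FDR of at most 5% thus leaves 6 of the 8 HSF lists, and a deposited fold of at least 10 leaves 4. Both limits were chosen after the values were seen, and the deposited fold does not compare lists. The depth-scaled fold, which multiplies it by input over ChIP kept tags, was 10.3 to 61.3 over the 8 lists.

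**Figure D3:**
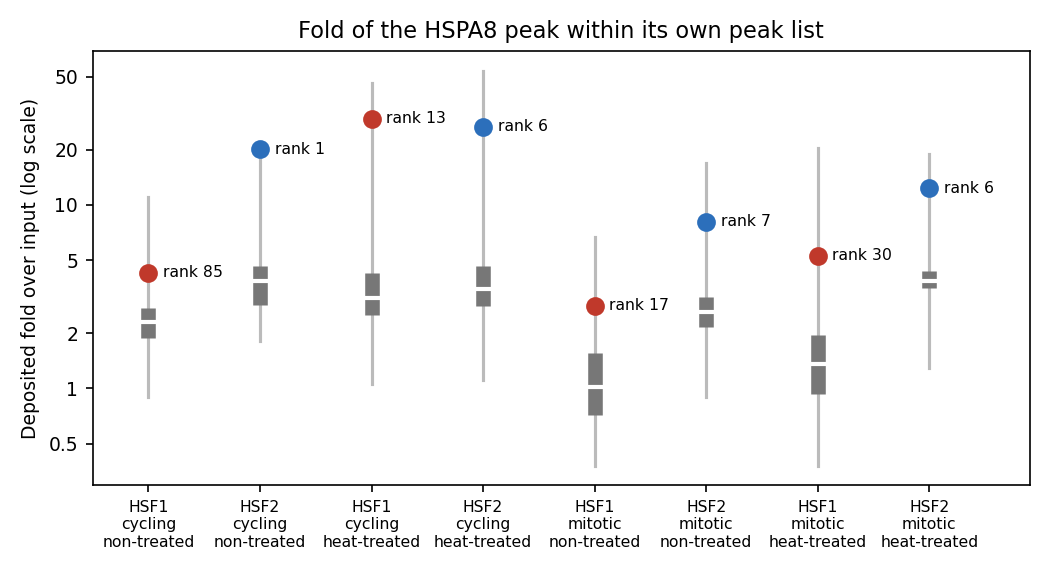
Deposited fold over input (log scale) of the HSPA8 peak (coloured point, with its rank) beside all peaks of the same list: thin line from lowest to highest, thick line the middle 50%, white mark the median. HSPA8 is the peak of highest fold in non-treated cycling HSF2 and ranks between 6 and 85 in the other 7 lists.

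The comparison of heat with no treatment asks how far the factors gain the promoter under stress. In cycling cells HSF1 at HSPA8 went from 0.969 to 7.77 CPM, a ratio of 8.02 (exact conditional 95% interval 4.61 to 15.1). Over 752 regions with an HSF1 peak in both lists the median ratio was 1.05, and 9.97% had a ratio of at least 2. HSPA8 lay above 99.3% of these regions. Sites without a listed non-treated peak are left out of them. Of the 285 heated cycling HSF1 peaks with a fold of at least 10, only 16 had a non-treated cycling HSF1 peak. Only 115 of the 752 regions had no IgG peak in any list, and their median was 1.15. Over the 64 shared regions with a fold of at least 5 in either list the median was 1.87. The non-treated HSPA8 peak has 14 tags and an FDR of 9.59%, near the lowest listed value of its list (12 tags, 0.831 CPM). It is also narrower, and per kilobase of peak width the ratio was 3.14. HSF2 in cycling cells went from 2.69 to 5.75 CPM, a ratio of 2.14 (1.59 to 2.90), from peaks of equal width. Over 279 shared HSF2 regions the median ratio was 1.02, and 14% had a ratio of at least 2. HSPA8 lay above 86.7% of them. Among the 39 shared regions without an IgG peak in any list, a subset chosen after the data were seen, the median was 2.14 and HSPA8 was the median region.

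In mitotic cells no ratio at HSPA8 was clear of 1. For HSF1 it was 1.45 (0.738 to 2.94), with a median of 1.01 over 1601 shared regions. For HSF2 it was 0.935 (0.620 to 1.43), with a median of 0.963 over 1815. The heat ratio of cycling over that of mitotic cells was 5.54 for HSF1 (2.39 to 12.8) and 2.29 for HSF2 (1.4 to 3.75), by a normal interval on the log scale. Per kilobase these were 2.13 and 3.21. The heat ratio of HSF1 over that of HSF2 was 3.74 in cycling cells (2.01 to 6.98) and 1.55 in mitotic cells (0.732 to 3.27). Per kilobase the former was 1.47 and the latter 2.21.

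Mitotic were compared with cycling cells to ask whether the promoter keeps the factors while chromosomes are condensed. After heat, both factors were lower in mitotic cells. The ratio at HSPA8 was 0.453 for HSF1 (0.285 to 0.695) and 0.418 for HSF2 (0.304 to 0.570). At most 0.5 was reached by 28.2% of 1201 shared HSF1 regions (median 0.784) and by 25.9% of 629 shared HSF2 regions (median 0.968). The HSF2 median was 0.470 over the 183 shared regions without an IgG peak and 0.471 over the 249 with a fold of at least 5, near the value of HSPA8. The HSF1 medians of these subsets were 0.699 and 0.600. Per kilobase the HSF1 ratio was 0.698. Without heat, HSF2 differed little, at 0.957 (0.631 to 1.43) and with a median of 0.934 over 473 regions. HSF1 without heat was higher in mitotic cells, by a ratio of 2.51 (1.13 to 5.61). A ratio of at least 2 was found at 8.47% of 1086 shared regions (median 0.731). The median was 1.11 over 60 regions without an IgG peak. The HSPA8 ratio rests on 15 and 14 tags, and per kilobase it was 1.49. The lowest listed value of non-treated mitotic HSF1 was 1.30 CPM, above the 0.969 CPM of the cycling peak. Any listed mitotic peak would have given a ratio above 1, so its direction was fixed by the listing.

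The headers of the 4 cycling HSF lists name bwa alignments, with total and kept tags nearly equal under a limit of 2 tags per position. Those of the 6 mitotic lists carry another naming, with total tags well above kept tags. Mitotic HSF1 was limited to 1 tag per position and all other HSF libraries to 2. Cell state and this handling cannot be told apart here, and the part of the limit in the HSF1 values was not tested. The heat comparisons each stay within 1 naming and 1 limit.

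The comparison of the factors with each other was made within each condition. HSF1 over HSF2 was 0.361 (0.189 to 0.643) in non-treated cycling cells. At most 0.5 was found at 27% of 407 shared regions, whose median was 0.780. Per kilobase the ratio was 0.847, because the HSF1 peak is 483 bp and the HSF2 peak 1134 bp wide. After heat the ratio was 1.35 (1.04 to 1.75), beside a median of 1.16 over 2101 shared regions. In mitotic cells it was 0.947 without heat (0.484 to 1.76) and 1.47 with heat (0.895 to 2.33). Mitotic HSF1 was limited to 1 tag per position and mitotic HSF2 to 2, and the part of this in the ratios was not tested. On total tags the mitotic ratios were 0.787 without and 1.15 with heat. The medians there were 0.575 over 1828 regions and 0.515 over 1444, so divided by the median the heated ratio was 2.85. The place of HSPA8 in this comparison turned with the regions counted. Over the 130 heated regions without an IgG peak the median was 2.03, above HSPA8. It was 1.04 where summits lay within 250 bp and 1.42 at a fold of at least 5. Without heat the median over 120 regions with no IgG peak was 1.20, also above HSPA8. In all, 12 pairs of libraries were compared at HSPA8, and 6 differed by at least 2-fold in either direction. Per kilobase, non-treated cycling HSF1 over HSF2 (0.847) fell within 2-fold. So did mitotic over cycling HSF1, at 1.49 without heat and 0.698 with heat. The direction of the non-treated one of these was fixed by the listing.

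**Figure D4:**
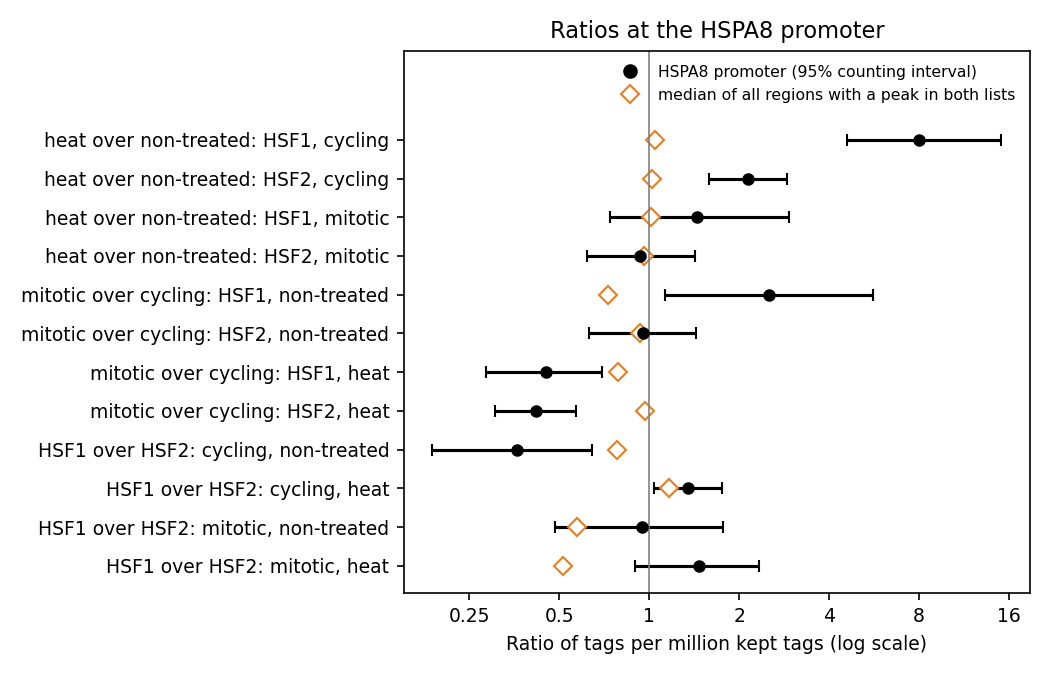
Ratio of tags per 1000000 kept tags at the HSPA8 promoter for 12 pairs of libraries (points, log scale, with exact conditional 95% intervals), beside the median of all regions with a peak in both lists (open diamonds). The ratio of heated over non-treated cycling HSF1, 8.02, is the farthest from 1.

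Presence in all conditions was set beside the 285 HSF1 peaks of heated cycling cells with a fold of at least 10, of which HSPA8 is 1. HSF1 had a peak at 5.61% of these sites in non-treated cycling cells, at 4.91% in non-treated mitotic cells and at 55.1% in heated mitotic cells. HSF2 had one at 11.9% in non-treated cycling, 98.2% in heated cycling, 15.1% in non-treated mitotic and 35.1% in heated mitotic cells. IgG had a peak at 2.11% and 1.75% of them in cycling cells without and with heat. In mitotic cells the IgG shares were 0% without heat and 19.3% with heat. HSPA8 was 1 of 5 sites (1.75%) present in all 8 HSF lists. Only 2 of the 285 (0.702%), HSPA8 and a site on chromosome 2, had all 8 and no IgG peak. When a match needed summits within 250 bp, 4 of the 285 (1.4%) did.

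Among these 285 sites, the 4 others shared by all 8 HSF lists are taken as the regions most like HSPA8, ordered by the mean absolute difference in log2 CPM over the 8 lists. Nearest was the chromosome 2 site at 198364229 to 198365255, with a difference of 0.49. Next came chromosome 11 at 286948 to 288156, with 0.63 and an IgG peak in 1 list. The chromosome 6 sites at 31782105 to 31785960 and at 31794357 to 31797922 differed by 1.26 and 1.41 and each had an IgG peak in 2 lists. Sites are given by position alone, because no gene annotation of hg19 was used here.

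HSPA8 had the lowest heated cycling level of these 5 sites for both factors, all of which were admitted for a high fold of HSF1 in that condition. The others had 9.62 to 35.9 CPM of HSF1 and 7.19 to 22.7 CPM of HSF2. By their positions the heated cycling HSF1 peaks of the chromosome 6 sites are wider than that of HSPA8. Levels and ratios of the other sites were not computed per kilobase. In non-treated cycling cells, however, HSF2 at HSPA8 (2.69 CPM) was level with the highest of the others, which ranged from 1.64 to 2.72. The heat ratio of cycling HSF2, 2.14 at HSPA8 (1.59 to 2.90), was 3.22 (2.38 to 4.40) at the chromosome 2 site. It was 5.23 (3.81 to 7.28) at the chromosome 11 site, and 13.9 (10.3 to 19.2) and 7.72 (6.05 to 9.97) at the chromosome 6 sites. The interval of HSPA8 overlaps that of the chromosome 2 site and no other. For cycling HSF1, the ratio of 8.02 at HSPA8 fell within the range of the others, 6.15 to 17.2.

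In mitotic HSF1 the chromosome 2 site had a heat ratio of 4.87 (2.62 to 9.87), with 1.95 CPM without and 9.48 CPM with heat. HSPA8 had 1.45, with 2.43 and 3.52 CPM, and the 2 intervals overlap narrowly. The other 3 sites had ratios of 2.78 (1.29 to 6.66), 8.76 (4.84 to 17.4) and 4.03 (2.77 to 6.01). Mitotic HSF2 ratios were 1.04 to 2.75 at the other sites and 0.935 at HSPA8. These are differences between single libraries at 5 sites and were not tested.

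Over a wider set of sites HSPA8 was no longer the lowest under heat, through added sites that also had IgG peaks. Its place among the sites above is not changed by them. At a heated cycling HSF1 fold of at least 5, a setting added once the values were known, 15 sites were in all 8 HSF lists, and each of the added ones had a peak in 3 or 4 IgG lists. The chromosome 2 and chromosome 11 sites were again the nearest to HSPA8. Of the 14 other sites, 7 had a lower heated cycling level of HSF1 than HSPA8 and 5 a lower one of HSF2. The heat ratio was lower than at HSPA8 at 8 of the 14 for cycling HSF2, at 6 for mitotic HSF1 and at 8 for mitotic HSF2. For cycling HSF1 it was lower at 12 of the 14, whose median was 1.55.

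**Figure D5:**
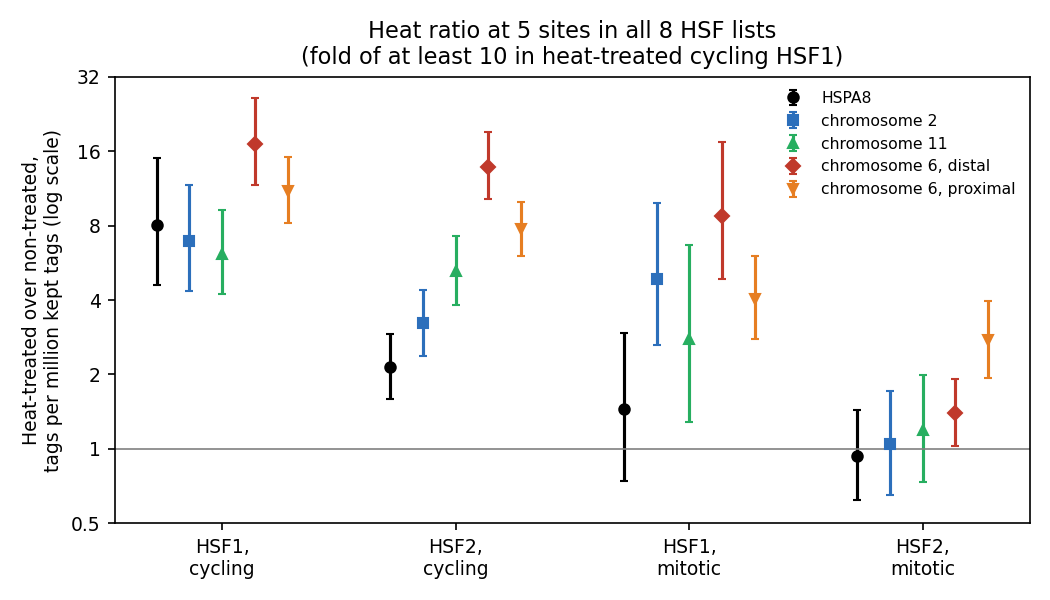
Heat-treated over non-treated tags per 1000000 kept tags (log scale) at the 5 sites that had a fold of at least 10 in heated cycling HSF1 and were in all 8 HSF lists, by antibody and cell state, with exact conditional 95% intervals; distal and proximal name the chromosome 6 sites of lower and higher coordinate. Among these 5, HSPA8 (black) has the lowest ratio in cycling HSF2 and in both mitotic comparisons.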

How the data were processed

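The aligner was Bowtie, the build hg19 and the peak caller MACS 1.4, per the submitters' processing notes; MACS 1.4.1 was run, per the file headers, with the input of the same cell state as control and a p cutoff of 1e-05. Tags per peak are counts, the fold over input is a ratio, the score is minus 10 times log10 of the p-value and the FDR is a percent, all as deposited by the authors. Kept tags, from the headers, ranged from 2066373 to 28676943.

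Tags were divided by kept tags per library and multiplied by 1000000. Ratios of 2 libraries have exact conditional (Clopper-Pearson) 95% intervals. Regions were shared when peaks overlapped by at least 1 bp, and the partner with most tags was taken. A summit is the peak start plus the deposited offset. The depth-scaled fold is the fold times input kept tags over ChIP kept tags. The 1 list with accession names for chromosomes was renamed. The gene, the lists and the comparisons were chosen with earlier results of these data known, and the ratios of heat ratios were added after the values were seen. The most alike regions were named by a fixed rule: up to 5 of the heated cycling HSF1 sites with a fold of at least 10 and a peak in every list that has one at HSPA8, by mean absolute log2 difference. The peaks of the other chaperone genes were not analysed here, because no hg19 annotation was used. The matching and intervals were tested on simulated data. Versions were pandas 2.3.3, scipy 1.17.1, matplotlib 3.10.9, numpy 2.4.6 and Python 3.11.15.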

Additional observations from a re-analysis of the deposited data

Results flagged for a closer look

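Some ratios at HSPA8 lay on opposite sides of 1 in 2 groups under the same contrast, with 1 library on each side, and this opposition was not tested across samples. Heat over no treatment for HSF2 was 2.14 in cycling and 0.935 in mitotic cells, and the interval of the latter includes 1. Mitotic over cycling for HSF1 was 2.51 without heat and 0.453 with heat, the former from 15 and 14 tags. The direction of the former was fixed by the listing. The lowest listed value of non-treated mitotic HSF1, 1.30 CPM, is above the 0.969 CPM of the cycling peak. HSF1 over HSF2 was 0.361 without and 1.35 with heat in cycling cells. In mitotic cells it was 0.947 without and 1.47 with heat, and both of these intervals include 1.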

How the results depend on the processing

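Across the alternatives no ratio whose interval excludes 1 changed direction at HSPA8. Total tags, the depth-scaled fold and, for 11 of 12 ratios, division by the median of shared regions kept each value within its main interval. The exception, heated mitotic HSF1 over HSF2, became 2.85. Per kilobase of peak, levels became 2.01 for non-treated and 6.30 for heated cycling HSF1. The ratio of these became 3.14, heated mitotic over cycling HSF1 0.698 and non-treated cycling HSF1 over HSF2 0.847, shifts that come from unlike peak widths by construction. No ratio with IgG could be formed. A deposited fold of at least 10, chosen after the data were seen, left 4 HSF lists with the peak. That fold ranks peaks within a list only, and the depth-scaled fold was at least 10.3 in all 8.

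Rank by score was 386 and 7 for non-treated cycling HSF1 and HSF2, 22 for heated cycling HSF2, 183 and 136 for non-treated mitotic HSF1 and HSF2, and 96 and 72 for the heated ones. Rank by tags was 2117, 281, 171 and 193 in the cycling lists (non-treated HSF1 and HSF2, heated HSF1 and HSF2) and 1183, 1142, 809 and 658 in the mitotic ones.

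The place of HSPA8 among shared regions depended most on which regions were counted, and the cause was not tested. Restricted to a fold of at least 5, the share of regions below HSPA8 was 92.2% and 54.7% for the heat ratio of cycling HSF1 and HSF2, and 28.6% (of 7 regions) and 54.3% for mitotic HSF1 and HSF2. For mitotic over cycling it was 84.6% (of 13) and 21.6% without heat and 26.6% and 43.0% with heat. For HSF1 over HSF2 it was 3.64% in non-treated and 54.6% in heated cycling cells, and 53.2% in heated mitotic cells. Without regions that have an IgG peak, chosen after the data were seen, the shares were 98.3%, 48.7%, 80.2% and 61.2% for the heat ratios in that order, 61.1% for non-treated HSF2, 19.7% and 42.6% for heated HSF1 and HSF2 in mitotic over cycling, and 3.85%, 62.9%, 37.5% and 29.2% for HSF1 over HSF2. By summits within 250 bp they were 76.4% and 51.5% for the heat ratio of HSF2 in cycling and mitotic cells, 94.1%, 30.4%, 14.9% and 27.1% for mitotic over cycling, and 3.87%, 54.6% and 69.8% for HSF1 over HSF2 in all but heated cycling cells.

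Sites of a fold of at least 20 had HSF1 peaks at 25% (non-treated cycling), 17.5% (non-treated mitotic) and 92.5% (heated mitotic), HSF2 peaks at 35%, 95%, 35% and 75% (cycling, then mitotic, each without and with heat), and IgG peaks at 7.5%, 10% and 27.5% (cycling without and with heat, heated mitotic). All 8 HSF lists were reached by 12.5%, and by 5% without any IgG peak. At a fold of at least 5, HSF2 shares were 3.92%, 78.6%, 8.33% and 16.3%, the heated mitotic HSF1 share was 24.4%, and 0.160% had all 8 and no IgG peak; 15 sites had all 8. By summits, IgG shares were 0.351% in either cycling list and 9.47% in heated mitotic cells, and non-treated mitotic HSF2 had 9.12%. No paired analysis was possible because each group holds 1 library. The HSF1 mitotic values rest on 15 and 26 tags, which limits their precision.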
